A study of Homo sapiens with 9 samples.

Results

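The average response of both NF-YA overexpressing lines was measured as the mean log2 fold change (log2FC) of NF-YAl and NF-YAs against Empty, each line with a weight of 0.5. Its consistency was measured as the difference between the lines. All 27111 genes of the deposited RNA-seq tables were eligible, and 17108 of them had enough reads to be tested. The samples were multicellular tumor spheroids (MTSs) of PC3, an androgen-independent line from a bone metastasis of prostate cancer, in 9 libraries: 3 Empty, 3 NF-YAl and 3 NF-YAs. All 3 lines had been infected with pSIN lentivirus and selected with puromycin, Empty with the vector alone, NF-YAl with the long isoform of murine NF-YA and NF-YAs with the short isoform. MTSs were pooled for each library. Each line was 1 transduced population, so the transgene and any other difference between the populations cannot be told apart. Total expected counts were 18076979 to 27163976 per library, with the highest in Empty, and the share of the 10 most abundant genes was 5.91% in NF-YAl replicate D and 9.08 to 14% elsewhere. KRT8 and KRT18, keratins of simple epithelium, were at 70.4 to 423 TPM (transcripts scaled for length and depth) in every library, and KLK3, the prostate-specific antigen gene, was listed at 0 in all. Markers of non-epithelial cell types summed to 76.2 to 112 TPM in Empty, 61.7 to 120 TPM in NF-YAl and 65.0 to 72.5 TPM in NF-YAs.

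NF-Y is a trimeric transcription factor that binds the CCAAT box of promoters. Its NF-YB and NF-YC subunits have histone folds, and NF-YA makes the contacts with the DNA sequence. The long isoform keeps an exon in the transactivation domain that the short isoform lacks, while the DNA-binding part is the same in both, so the average of both lines measures what the isoforms had in common in these cells. Promoters of cell cycle, endoplasmic reticulum and cholesterol synthesis genes are rich in CCAAT boxes.

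The average response comprised 841 up-regulated genes (4.92% of those tested) and 596 down-regulated genes (3.48%), called at an adjusted p under 0.01 and an absolute log2FC above 1. On adjusted p alone, 2096 genes were higher and 2037 lower. The median log2FC was 1.81 among the up-regulated genes and -1.39 among the down-regulated genes, against -0.005 over all tested genes. More than 4-fold changes were found in 349 up-regulated and 122 down-regulated genes. The up-regulated genes started from low levels: their median in Empty was 1.03 CPM (counts scaled to library size), and 413 of them were under 1 CPM there. The down-regulated genes had a median of 11.1 CPM in Empty, and 40 were under 1 CPM, against 12.5% of all tested genes. In these bulk libraries, fewer cells that express a gene and less RNA per cell cannot be told apart.

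**Figure D1:**
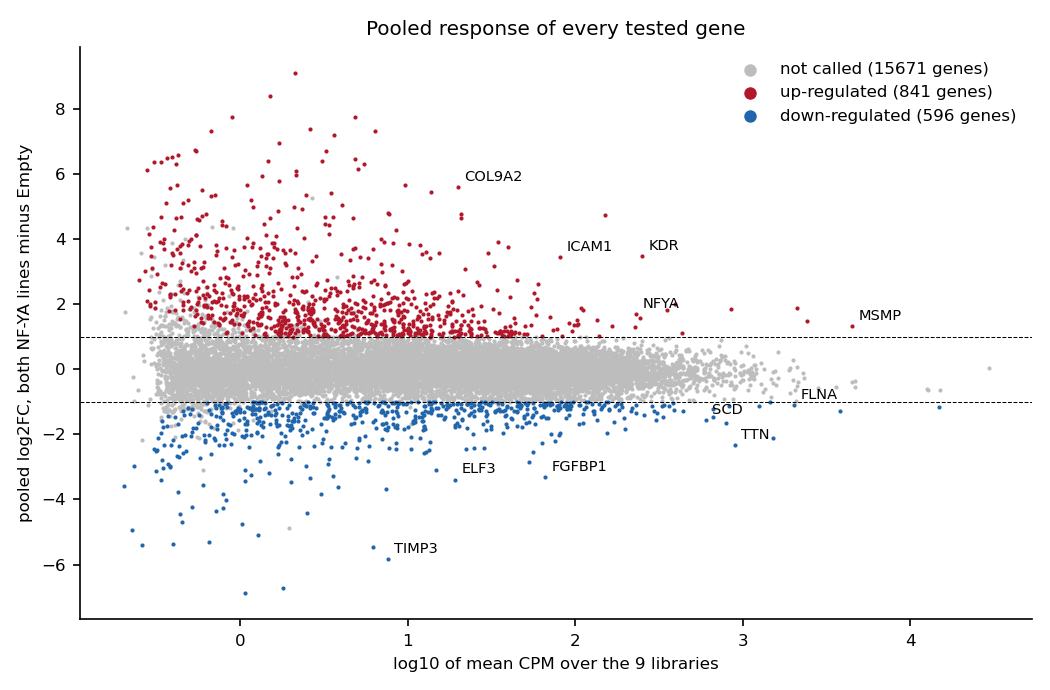
Pooled log2FC (y axis, both NF-YA lines with equal weight minus Empty) against the log10 of mean CPM over the 9 libraries (x axis) for the 17108 tested genes. The 841 up-regulated genes (red) lie mostly at low levels, and the 596 down-regulated genes (blue) reach higher ones; dashed lines mark log2FC of -1 and 1.

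The lines were compared with each other without the Empty means, because NF-YAl against Empty and NF-YAs against Empty share their controls. All 9 libraries were in the fit, so Empty still entered the spread behind the p-values and intervals of this difference. Of the 1437 called genes, 366 (25.5%) differed between NF-YAl and NF-YAs at an adjusted p under 0.01, while 11% of all tested genes did. The difference between the lines had a 95% interval wholly within 1 log2 unit of 0 in 537 called genes (37.4%), against 72.3% of all tested genes. For 555 called genes neither statement could be made, and 21 met both. Against Empty, 748 of the called genes passed the same thresholds in each line on its own. Another 275 passed in NF-YAl only, 380 in NF-YAs only and 34 in neither line. In 13 called genes the log2FCs of the lines against Empty had opposite signs. The median absolute difference between the lines was 0.63 log2 units among called genes and 0.27 over all genes. Among the up-regulated genes that differed, 143 were higher in NF-YAs and 67 in NF-YAl. Among the down-regulated ones, 85 were higher in NF-YAs and 71 in NF-YAl. All 6 overexpressing libraries lay above all 3 Empty libraries in 760 of the 841 up-regulated genes (90.4%), and in 14.4% of all tested genes. All 6 lay below Empty in 533 of the 596 down-regulated genes (89.4%), and in 13.8% of all tested genes. Both measures use the same libraries as the call, so these shares describe the called genes. When the spread between the lines was counted as error, with the 6 overexpressing libraries as 1 group, 947 of the 1437 genes were still called. Of the genes chosen by rule and described here, LRRC38, TFF2, RNA28S5, ADAMTS1, CLDN1, EHF, POU3F2, IFI27, LOX, MT2A and VWF were not. Genes described outside that rule were not looked up singly in this fit. The genes whose lines were alike had the higher CPM, with a median in Empty of 3.25 CPM for the 324 up-regulated and 43.7 CPM for the 213 down-regulated. An interval within 1 log2 unit needs enough counts, so this link to level follows in part from the rule.

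**Figure D2:**
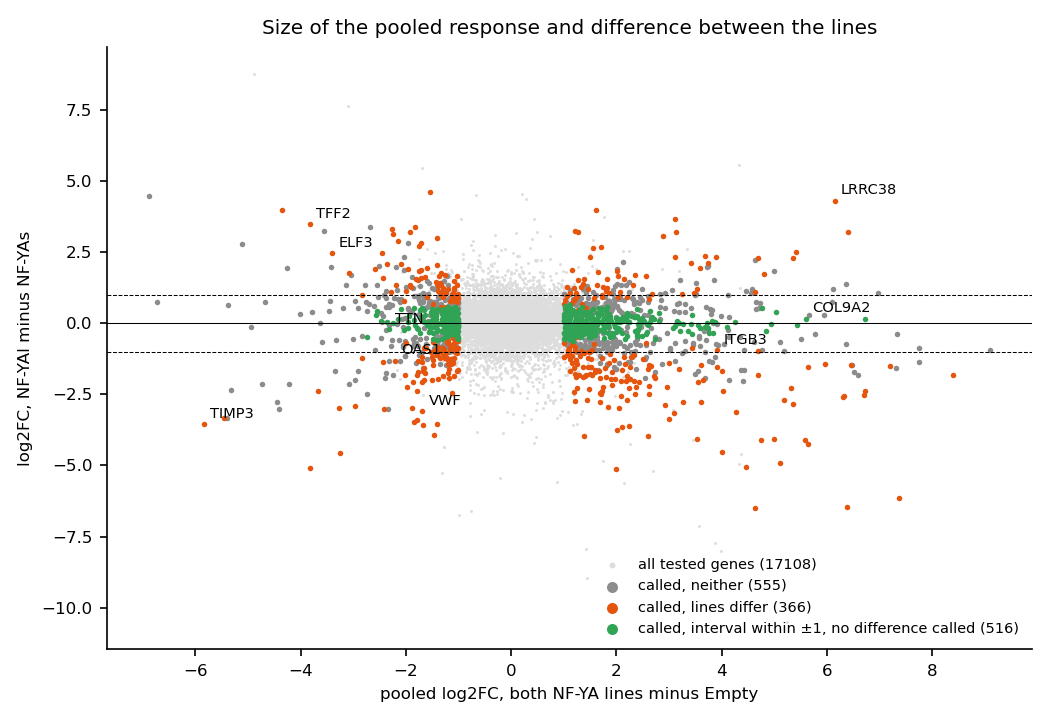
Difference between the lines (y axis, log2FC of NF-YAl minus NF-YAs) against the pooled log2FC (x axis) for all 17108 tested genes, with the 1437 called genes coloured by whether the lines differed (366), were within 1 log2 unit without a called difference (516) or neither (555). Genes with a large pooled log2FC include some on the zero line, such as COL9A2, and some far from it, such as LRRC38 and TIMP3.

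NFYA itself (GRCh37 chr6:41040713-41070142, plus strand) was at 89.2, 96.7 and 89.4 CPM in Empty, 287, 383 and 353 CPM in NF-YAl and 264, 263 and 254 CPM in NF-YAs. Every overexpressing library exceeded every Empty library, and the average rise was 3.25-fold (log2FC 1.70, SE 0.10, adjusted p = 4.16e-07). The lines differed by 0.39 log2 units, with a 95% interval of 0.15 to 0.62 and an adjusted p of 0.0228. The mouse transgene's reads add to this human gene wherever they align to it, and OARD1 overlaps NFYA on the opposite strand. NFYB, which gives the trimer a histone fold, had a log2FC of 0.41 (adjusted p = 0.0475), and NFYC, its histone-fold partner, a log2FC of 0.30 (adjusted p = 0.0317), and neither was called.

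The genes with the largest rises in which the lines were alike were COL9A2, PTPRG, ZNF607, OLFM2, ZNF718, ZNF415, DMD and LPAR3, with log2FCs of 3.82 to 5.60. COL9A2, which encodes a chain of cartilage collagen IX, was at 0.839, 0.318 and 0.669 CPM in Empty, 33.8, 34.2 and 26.5 CPM in NF-YAl and 28, 29.3 and 26.7 CPM in NF-YAs. This was a 48.6-fold rise (log2FC 5.60, SE 0.22, adjusted p = 5.69e-08) with a difference between the lines of 0.17 (95% interval -0.18 to 0.52). The 6 overexpressing libraries of COL9A2 fell in 1 narrow band far above Empty. PTPRG, a receptor tyrosine phosphatase, was at 0.377, 0.874 and 0.157 CPM in Empty, 20.8, 22.8 and 16.8 CPM in NF-YAl and 23.6, 10.4 and 29 CPM in NF-YAs (log2FC 5.43, SE 0.45). Its NF-YAs libraries spread over the whole range of NF-YAl, and the lines differed by -0.06. OLFM2, a secreted olfactomedin-domain protein, was at 0.914 to 1.3 CPM in Empty, 26.9 to 43.1 CPM in NF-YAl and 22.1 to 26.5 CPM in NF-YAs (log2FC 4.77). LPAR3, a receptor for lysophosphatidic acid, was at 1.01 to 1.46 CPM in Empty and at 12.8 to 20.9 CPM in the overexpressing libraries (log2FC 3.82). DMD, the gene of the muscle protein dystrophin, was at 0.587 to 1.43 CPM in Empty and 11.2 to 18.4 CPM in the overexpressing libraries (log2FC 3.84). ZNF607, ZNF718 and ZNF415 encode zinc finger proteins, with log2FCs of 5.04, 4.26 and 3.87. Families of zinc finger genes are alike in sequence, so reads may have been shared among their members.

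Among genes with large rises that differed between the lines, 3 of the 4 named by size were higher in NF-YAs. PDZRN3, a ubiquitin ligase with PDZ domains, was at 0, 0.0795 and 0 CPM in Empty, 1.54 to 3.84 CPM in NF-YAl and 7.38 to 8.94 CPM in NF-YAs. GPR85, an orphan receptor of brain, was at 3.24 to 4.25 CPM in NF-YAl and 9.43 to 12.3 CPM in NF-YAs, and DCHS2, a cadherin-like protein, at 1.77 to 3.27 CPM and 12.3 to 15.2 CPM, both at most 0.119 CPM in Empty. In PDZRN3, GPR85 and DCHS2 both lines stood above Empty, and NF-YAs exceeded NF-YAl by 1.5, 1.48 and 2.59 log2 units. LRRC38, an auxiliary protein of potassium channels, went the other way, with 1.49, 21.3 and 20.5 CPM in NF-YAl and 0.199 to 1.34 CPM in NF-YAs. Its NF-YAl replicate A stood near the NF-YAs libraries, and it was not called without any 1 Empty library or without NF-YAs replicate C (adjusted p of 0.0136 to 0.0175). The up-regulated genes with the highest mean CPM were MSMP, COL6A1 and COL6A2. MSMP, a secreted microseminoprotein first found in PC3 cells, rose from 1961 to 2621 CPM in Empty to 4913 to 6063 CPM in the overexpressing libraries (log2FC 1.32, SE 0.12), with a difference between the lines of 0.10.

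**Figure D3:**
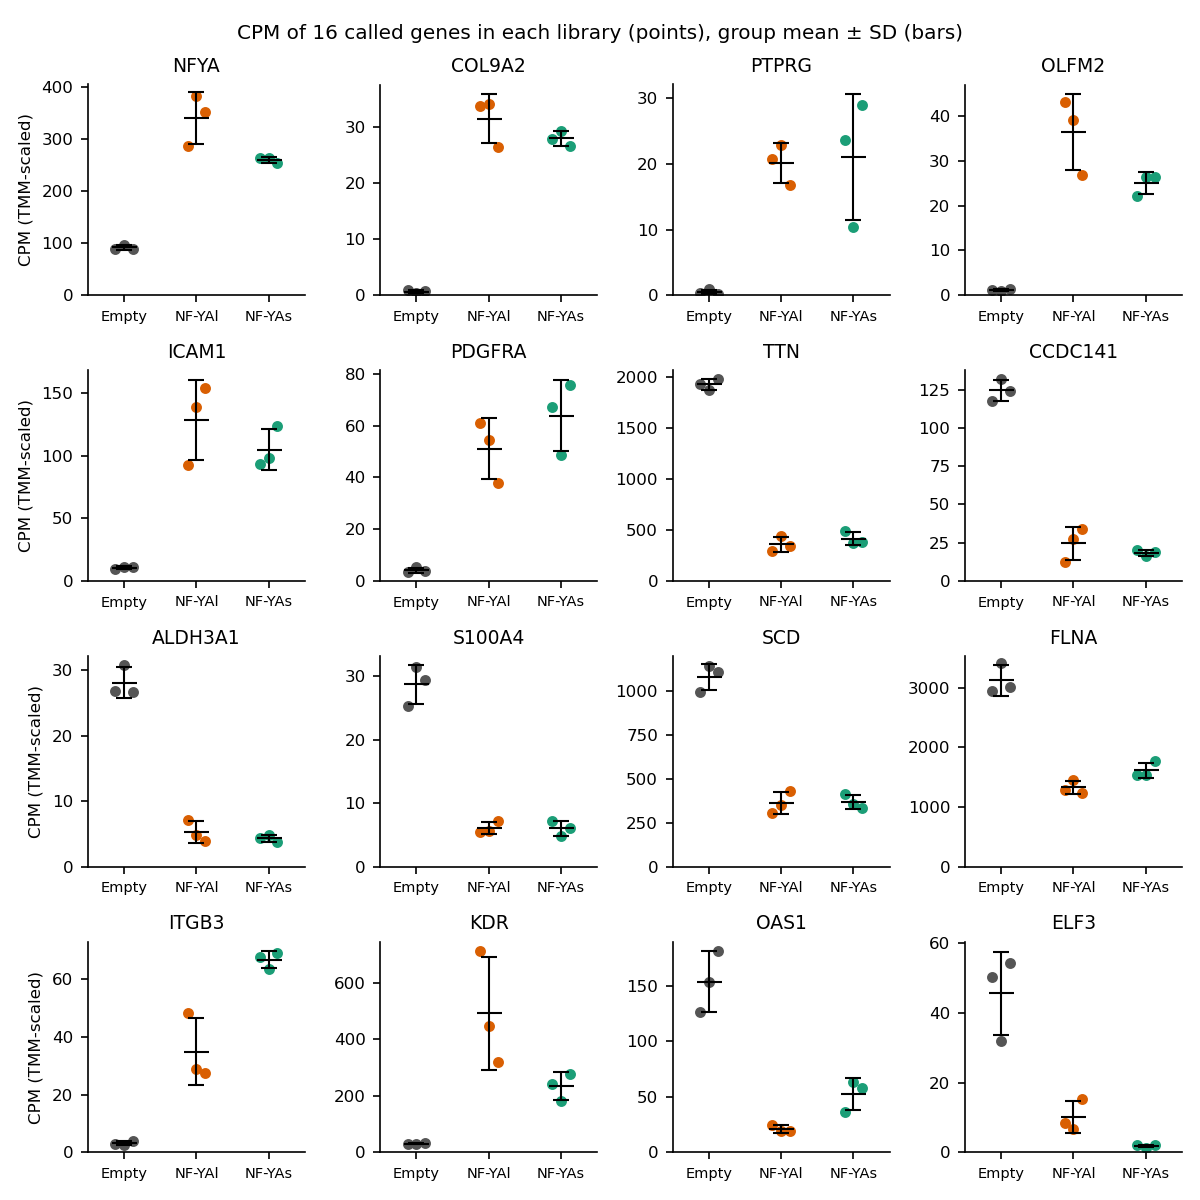
CPM (y axis, linear from 0, TMM-scaled) of 16 called genes in each of the 9 libraries, with points for libraries, a wide tick for the mean and bars for the SD of 3 libraries. In COL9A2, PTPRG, TTN, S100A4 and SCD the NF-YAl and NF-YAs points overlap in level, whereas KDR is higher in NF-YAl and OAS1 higher in NF-YAs.

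Of the 8 genes with the largest falls in which the lines were alike, TTN had the highest CPM, which is not scaled for length. TTN encodes the giant sarcomere protein titin. It was at 1937, 1873 and 1979 CPM in Empty, 296, 438 and 344 CPM in NF-YAl and 490, 372 and 381 CPM in NF-YAs, a 5-fold fall (log2FC -2.32, SE 0.12, adjusted p = 2.27e-07). The lines differed by -0.21 (95% interval -0.53 to 0.12). CCDC141, its neighbour on the same strand of chromosome 2, from 179694484 to 179914864 against 179390716 to 179695529 for TTN, was at 118 to 132 CPM in Empty, 12.6 to 33.8 CPM in NF-YAl and 16.1 to 20.3 CPM in NF-YAs (log2FC -2.55). The annotated ends of both genes overlap, so some reads may belong to either. ALDH3A1, an aldehyde dehydrogenase of epithelia, fell from 26.6 to 30.8 CPM in Empty to 3.73 to 7.16 CPM in the overexpressing libraries (log2FC -2.56). S100A4, a calcium-binding protein of motile cells, fell from 25.3 to 31.4 CPM to 4.83 to 7.19 CPM (log2FC -2.24, SE 0.14), and its lines differed by 0.02 (95% interval -0.37 to 0.40). MUC5B, a gel-forming mucin of airway secretions, had a log2FC of -2.46, ANGPTL7, a secreted angiopoietin-like protein, -2.36, STX11, a syntaxin of immune cell secretion, -2.16, and the non-coding RNA LINC01444 -2.73. In each of these 8 genes all overexpressing libraries lay below all Empty libraries.

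TIMP3, an inhibitor of metalloproteinases, and SYN3, a synapsin gene within whose annotated span it lies on the opposite strand, fell together and differed between the lines. TIMP3 was at 25.4, 22.2 and 16.7 CPM in Empty, 0.159, 0.0818 and 0.0822 CPM in NF-YAl and 1.4, 0.647 and 1.75 CPM in NF-YAs (log2FC -5.84). SYN3 was at 15 to 19.1 CPM in Empty, 0 to 0.204 CPM in NF-YAl and 1.09 to 1.56 CPM in NF-YAs (log2FC -5.45). The kit was stranded, but the strand setting of the counting is not given in the sources used here, so the reads of TIMP3 and SYN3 cannot be assigned to 1 of them. TTN, MSMP, LOX, TMPRSS2 and RPL10 likewise have an annotated gene on the opposite strand. GABRA3, a GABA receptor subunit, fell to 0.409 to 1.11 CPM in NF-YAl and 3.02 to 3.73 CPM in NF-YAs from 15.6 to 22.5 CPM. TFF2, a trefoil peptide of mucous epithelia, fell the further in NF-YAs, to 0.108 to 0.199 CPM, against 0.318 to 2.38 CPM in NF-YAl and 5.12 to 10.1 CPM in Empty. The down-regulated genes with the highest mean CPM were RNA28S5, NEAT1 and FLNA. RNA28S5 is ribosomal RNA left after depletion, and without Empty replicate A, which had 40257 CPM against 13952 and 16735 CPM in the other Empty libraries, its log2FC was -0.54 and it was not called. NEAT1, a nuclear non-coding RNA, was at 4546 to 7735 CPM in Empty and 1817 to 3738 CPM in the overexpressing libraries (log2FC -1.29), and it was not called with effective length as an offset (log2FC -0.87). It was the 1 called member of 10 nuclear RNA indicators, whose median log2FC was -0.49. FLNA, an actin crosslinker, fell from 2943 to 3425 CPM to 1244 to 1766 CPM (log2FC -1.09, SE 0.10).

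Collagens were the gene list with the highest median. Of 32 collagen genes tested, 13 were up-regulated and 1 down-regulated, with a median log2FC of 1.02. For this list and those below, the shares over all tested genes were 4.92% up and 3.48% down. COL6A1 and COL6A2, adjacent on chromosome 21 and encoding chains of collagen VI microfibrils, rose in both lines and further in NF-YAs. COL6A1 was at 959, 1155 and 1016 CPM in Empty, 1616, 2394 and 2152 CPM in NF-YAl and 4114, 4126 and 4299.6 CPM in NF-YAs. Its log2FC was 1.49, and NF-YAl lay 1.03 log2 units below NF-YAs. COL6A2 was at 639 to 816 CPM, 1567 to 2129 CPM and 3599.6 to 4100.2 CPM in Empty, NF-YAl and NF-YAs, with a log2FC of 1.89. In COL6A1 and COL6A2 the 3 groups did not overlap. COL4A1, a chain of basement membrane collagen IV, was at 34.2 to 41.5 CPM in Empty and 107 to 187 CPM in the overexpressing libraries, and the interval of its line difference, -0.71 to -0.20, was within the band. COL4A1 shares its start region with COL4A2 on the opposite strand. COL17A1, a hemidesmosome collagen of epithelia, was the 1 that fell (log2FC -1.29). Of the 14 called collagens, 7 differed between the lines and 4 had lines within 1 log2 unit, and 8 of the 13 that rose were called in each line on its own.

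The other matrix lists moved in both directions. Matrix glycoproteins had 9 up and 7 down of 58 tested (median 0.06), proteoglycans 5 up and 1 down of 25 (median -0.42; 0 down without Empty replicate B or NF-YAs replicate C), and matrix proteases with their inhibitors 13 up and 9 down of 49 (median 0.31). SPARC, which regulates collagen assembly, rose from 267 to 320 CPM in Empty to 954 to 2375 CPM in NF-YAl and 699 to 779 CPM in NF-YAs (log2FC 1.85). LAMA4, a laminin chain of vessel basement membranes, rose from 6.4 to 7.75 CPM to 20.4 to 29.2 CPM in the overexpressing libraries (log2FC 1.77), with a line difference of -0.19. SDC2, a cell surface proteoglycan, rose by a log2FC of 2.20, further in NF-YAl. Among proteases, MMP13, a collagenase, fell from 80.03 to 111 CPM to 24.3 to 48.2 CPM (log2FC -1.48, lines within the band), and ADAMTS1, an aggrecanase, fell from 259 to 319 CPM to 132 to 193 CPM in NF-YAl and 52.5 to 54.4 CPM in NF-YAs (log2FC -1.63).

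Of 21 integrin genes, 5 rose and 1 fell, while the median log2FC was -0.24 and 12 of the 21 values were negative. Without Empty replicate A or without Empty replicate C, 3 were called up. ITGB3, the beta chain of the vitronectin receptor, was at 3.06, 2.46 and 3.98 CPM in Empty, 48.1, 28.8 and 27.5 CPM in NF-YAl and 67.4, 63.4 and 68.9 CPM in NF-YAs (log2FC 3.92, SE 0.22). ITGA2B, the alpha chain of the platelet integrin, and ITGA7, a laminin receptor of muscle, rose with lines within the band (log2FC 1.23 and 1.84), ITGA7 with BLOC1S1 overlapping it on the opposite strand. ITGA2, a collagen receptor chain, was at 237 to 288 CPM in Empty and 94.5 to 123 CPM in the overexpressing libraries (log2FC -1.25, SE 0.09), with a line difference of -0.14.

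Epithelial junction and identity genes had 3 up and 11 down of 54 tested (median -0.23), and 7 of the 14 differed between the lines. With the lines taken as 1 group, 6 were called down, and without NF-YAl replicate A, 5 were called up. ELF3, an epithelial ETS factor, was at 50.4, 31.9 and 54.4 CPM in Empty, 8.33, 6.75 and 15.4 CPM in NF-YAl and 2.1, 1.34 and 2.07 CPM in NF-YAs (log2FC -3.39, SE 0.24). CDH3, the cadherin of basal epithelium, fell from 55.8 to 64.5 CPM to 16.2 to 23.3 CPM in NF-YAl and 5.18 to 7.33 CPM in NF-YAs (log2FC -2.43). EHF, another epithelial ETS factor, was called on average (log2FC -1.75), but NF-YAl had 30.9 to 52 CPM and overlapped the 45 to 56.8 CPM of Empty, while NF-YAs had 3.73 to 7.46 CPM. CLDN1, a tight junction protein, was called up with NF-YAs at 3.23 to 4.10 CPM, within the 2.28 to 4.53 CPM of Empty, and NF-YAl at 7.9 to 20.1 CPM. EHF and CLDN1 were not called with the lines as 1 group (adjusted p = 0.22 and 0.0997). Of 34 EMT and mesenchymal genes, 8 rose and 3 fell (median -0.05). Those called up were 4 without Empty replicate A, 5 without Empty replicate B, Empty replicate C or NF-YAs replicate A, 4 with the lines as 1 group and 3 when called in both lines. PDGFRA, a receptor of mesenchymal cells, was at 3.52, 5.32 and 3.78 CPM in Empty, 61.1, 54.3 and 38 CPM in NF-YAl and 67.3, 48.8 and 75.7 CPM in NF-YAs (log2FC 3.76, SE 0.22), with a line difference of -0.32 (95% interval -0.75 to 0.10). CDH6, a cadherin of kidney development, rose (log2FC 1.67), and CDH11, the cadherin of osteoblasts, fell from 658 to 818 CPM to 158 to 345 CPM (log2FC -1.28), both with lines within the band.

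Receptors and ligands of signalling held some of the largest changes. Of 64 growth factor genes, 8 rose and 5 fell (median 0.14). KDR, the main VEGF receptor of endothelium, was at 28.2, 31.3 and 32.1 CPM in Empty, 710, 445 and 318 CPM in NF-YAl and 242, 182 and 279 CPM in NF-YAs, an 11.1-fold rise (log2FC 3.47, SE 0.25). FLT1, the other major VEGF receptor, was at 2.74 to 4.32 CPM in Empty, 9.92, 38 and 59.2 CPM in NF-YAl and 43.7 to 57.8 CPM in NF-YAs (log2FC 3.57). KDR was higher in NF-YAl than in NF-YAs and FLT1 did not differ at the threshold (interval of the line difference -1.43 to 0.38). FGFBP1, a secreted carrier of fibroblast growth factors, fell from 145, 169 and 179 CPM to 4.99, 13.6 and 21.2 CPM in NF-YAl and 24.6, 16 and 20.2 CPM in NF-YAs (log2FC -3.32, SE 0.28). FGF1, a fibroblast growth factor, fell with it, from 33.1 to 54 CPM to 8.95 to 17.7 CPM (log2FC -1.81). The BMP and TGF-beta list had 7 up and 4 down of 50 (median 0.03). The ligands BMP6 and BMP4 rose (log2FC 2.21 and 2.001). Secreted antagonists went both ways, since CHRDL1, a chordin-like antagonist with the highest value of the list (log2FC 3.68), rose and FST and NOG fell. FST, which binds activin, was at 527 to 548 CPM in Empty and 146 to 213 CPM in the overexpressing libraries (log2FC -1.55, SE 0.09, line difference -0.18), and NOG, which binds BMPs, at 49.4 to 66.9 CPM and 4.51 to 23 CPM (log2FC -1.86). The Wnt and Notch list had 8 up and 4 down of 57, with LGR5, an R-spondin receptor of stem cells, at a log2FC of 3.42 and the ligand WNT3 at 2.07.

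Of 67 axon guidance genes, 13 rose and 5 fell (median 0.12; 3 down without Empty replicate B), and 11 of the 18 had lines within 1 log2 unit. SEMA6B, a transmembrane semaphorin, rose from 5.24 to 6.64 CPM to 30.9 to 41.5 CPM (log2FC 2.59, SE 0.13, line difference -0.03). The ephrin receptor EPHA5 rose from 4.72 to 4.78 CPM to 19 to 33.2 CPM (log2FC 2.34). EPHA7, its relative, rose further in NF-YAl (19.3 to 33.1 CPM) than in NF-YAs (9.06 to 10.8 CPM) from 2.56 to 4.25 CPM, and the ephrin EFNB1 fell from 245 to 277 CPM to 73.3 to 126 CPM (log2FC -1.21). Among 44 neural adhesion and synapse genes, 10 rose and 3 fell (median 0.07). MAP2, a dendrite microtubule protein, rose (log2FC 2.73), CNTN1, a contactin, rose to 6.86 to 9.07 CPM in NF-YAl and 30.4 to 31.8 CPM in NF-YAs from 2.14 to 3.58 CPM, and SYT7, a synaptotagmin of vesicle fusion, fell from 23 to 26.9 CPM to 5.77 to 8.01 CPM (log2FC -1.85, line difference 0.13). Of 15 neuroendocrine genes, 3 rose, among them POU3F2, a neural POU factor raised mainly in NF-YAs (12.6 to 15.8 CPM, against 1.97 to 5.3 CPM in NF-YAl and 1.23 to 2.24 CPM in Empty), and ONECUT2, a homeobox factor (log2FC 1.40).

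In the prostate lineage list, 3 of 20 genes rose and 3 fell. TMPRSS2, a protease gene of prostate epithelium, fell from 11.7 to 18.3 CPM to 2.03 to 4.64 CPM (log2FC -2.15), with MX1 overlapping it on the opposite strand.

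Interferon-stimulated genes, which respond to type I interferon and encode antiviral proteins, moved in 1 direction. Of 62 tested, 26 were down-regulated and 0 up-regulated, with a median log2FC of -0.92, while 596 of 17108 genes (3.48%) were down-regulated overall. Of the 26, 23 differed between the lines, all 23 lower in NF-YAl, and the median log2FC of the 26 was -1.86 in NF-YAl and -0.71 in NF-YAs, both against the same Empty libraries. Only 5 were called in each line on its own, and 6 with the lines as 1 group. OAS1, an activator of RNA decay, was at 126, 153 and 182 CPM in Empty, 25, 19.6 and 18.9 CPM in NF-YAl and 36.1, 63.5 and 58 CPM in NF-YAs (log2FC -2.21, SE 0.16). MX2, an antiviral GTPase, was at 41.7 to 54.7 CPM, 5.42 to 5.52 CPM and 7.22 to 20.8 CPM in Empty, NF-YAl and NF-YAs (log2FC -2.44), and IFI27, an interferon-induced mitochondrial protein, at 11.2 to 16.4 CPM, 1.02 to 2.46 CPM and 5.44 to 9.08 CPM (log2FC -1.87). IFI27 was among those not called as 1 group (adjusted p = 0.0541). No gene of 21 in MHC class I antigen presentation was called. Inflammatory genes went both ways, with 9 up and 5 down of 39. ICAM1, an adhesion molecule for leukocytes, was at 9.31, 11.5 and 11.2 CPM in Empty, 92.7, 139 and 154 CPM in NF-YAl and 93.2, 97.7 and 123 CPM in NF-YAs (log2FC 3.44, SE 0.18), with a line difference of 0.29 (95% interval -0.08 to 0.67). The cytokines IL1B and IL32 rose (log2FC 2.16 and 1.97). CCL2, a chemokine for monocytes, fell from 2.42 to 8.66 CPM to at most 1.18 CPM, CCL26, an eosinophil chemokine, fell (log2FC -2.26), and IL18, an inflammasome cytokine, fell from 21.1 to 24.9 CPM to 7.61 to 14.1 CPM (log2FC -1.18).

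Of 42 cholesterol and fatty acid synthesis genes, 5 were down-regulated and 0 up-regulated (median log2FC -0.45), and all 5 had lines within 1 log2 unit. The count was 3 without NF-YAl replicate A and 8 without NF-YAl replicate D. SCD, the desaturase that makes oleic acid, was at 998, 1142 and 1109 CPM in Empty, 305, 352 and 429 CPM in NF-YAl and 414, 358 and 334 CPM in NF-YAs (log2FC -1.57, SE 0.11, adjusted p = 1.27e-06, line difference -0.02). The sterol synthesis enzymes MSMO1, NSDHL and MVD and the feedback regulator INSIG1 had log2FCs of -1.29, -1.22, -1.08 and -1.04. Of 45 glycolysis and hypoxia genes, 6 fell and 1 rose (median -0.45): EPAS1, the hypoxia-inducible factor HIF-2 alpha, fell from 18.2 to 24.9 CPM to 2.29 to 7.43 CPM (log2FC -2.09), ANGPTL4, a lipase inhibitor, by a log2FC of -2.03, and NDRG1, a hypoxia and stress gene, from 989 to 1285 CPM to 313 to 580 CPM (log2FC -1.48). The riser was LOX, a collagen crosslinking enzyme, at 37.1 to 54.6 CPM in NF-YAl and 14.5 to 16.1 CPM in NF-YAs against 10.7 to 10.9 CPM in Empty. CTH, the cystathionine lyase, and GPT2, the mitochondrial alanine transaminase, fell (log2FC -1.66 and -1.50), the 2 called of 30 amino acid supply genes, both with lines alike. The metallothioneins MT1X and MT2A fell (log2FC -1.66 and -1.14), further in NF-YAl, among 6 down of 30 NRF2 and metallothionein genes. In the apoptosis list 3 of 45 rose (6.67%) and 1 fell (2.22%), against 4.92% and 3.48% of all tested genes. Without Empty replicate B, Empty replicate C or NF-YAl replicate D, 1 was called up. BMF, a BH3-only protein, rose (log2FC 1.14) and GADD45B, a stress-response gene, fell (log2FC -1.30).

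Proliferation and housekeeping lists held few called genes on average, and in the proliferation lists the line medians lay on either side of 0. The median log2FC of G2/M genes was -0.35 in NF-YAl and 0.21 in NF-YAs, against the same Empty libraries, and 11 of 77 differed between the lines, 10 of them lower in NF-YAl. For replication and S phase genes the medians were -0.17 and 0.18, and 8 of 72 differed, all 8 lower in NF-YAl. Over all tested genes, 1874 of 17108 (11%) differed between the lines, 1070 of them lower in NF-YAl. Of 77 G2/M and mitotic genes, CCNB3, a cyclin of germ cells that stayed at or under 1.06 CPM, was the 1 called (up), and 74 had a 95% interval of the pooled log2FC within 1 log2 unit of 0, against 74.7% of all tested genes. None of 72 replication and S phase genes and none of 76 respiratory chain genes was called, with pooled log2FCs of -0.89 to 0.71 and -0.63 to 0.59. Of 79 cytosolic ribosomal protein genes, RPL10 fell (log2FC -1.22, from 886 to 1157 CPM to 428 to 477 CPM), 74 had a negative log2FC and the median was -0.29. All 79 had lines within 1 log2 unit of each other. Of 28 HOX genes, HOXD13, a limb patterning factor at most at 1.06 CPM, was called (3.57% up, against 4.92% of all tested genes). Of 40 endoplasmic reticulum genes, HERPUD1, a protein of the degradation pathway, fell from 120 to 164 CPM to 55 to 73.2 CPM (log2FC -1.21). That was 2.5% down, against 3.48% of all tested genes. The endoplasmic reticulum count was 2 without any 1 of Empty replicates A and B and NF-YAs replicate C and 3 without NF-YAl replicate D, and the HOX count 2 without NF-YAs replicate B. Of 15 tested markers of non-epithelial cells, 2 rose and 1 fell, the last being VWF, an endothelial clotting protein, at 0.493 to 0.941 CPM in NF-YAl and 5.71 to 6.57 CPM in NF-YAs against 6.42 to 7.31 CPM in Empty. The part of such cells in the response was not tested.

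The letters CCAAT, the core of the NF-Y site, were looked for on both strands (CCAAT or ATTGG) in 300 bases around the start of the canonical transcript of each gene, 250 before and 50 after, in GRCh37. Of 820 up-regulated genes with such a window, 256 (31.2%) held it, and of 554 down-regulated genes 190 (34.3%) did, against 5663 of 15909 tested genes (35.6%). Among the called genes with lines alike the shares were 29.7% for up and 35.0% for down. Genes with the letters in their window were called up in 4.52% and down in 3.36%, and genes without them in 5.50% and 3.55%. Beside the NF-Y subunits, all 3 of which held it, the lists with the highest shares were endoplasmic reticulum genes (75.0%), G2/M genes (74.0%), HOX genes (71.4%) and cholesterol synthesis genes (61.9%), of which 1, 1, 1 and 5 members were called. A match is a description of the sequence and no evidence of binding.

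The 250 bases before the start of 4 down-regulated genes of CCAAT-rich pathways, all with lines alike, are shown because they show how differently the letters are spaced in promoters whose transcripts moved. They are given 5′ to 3′ on the strand of the gene, from GRCh37, with CCAAT or ATTGG in capitals.
SCD, chr10:102106740-102106989, plus strand: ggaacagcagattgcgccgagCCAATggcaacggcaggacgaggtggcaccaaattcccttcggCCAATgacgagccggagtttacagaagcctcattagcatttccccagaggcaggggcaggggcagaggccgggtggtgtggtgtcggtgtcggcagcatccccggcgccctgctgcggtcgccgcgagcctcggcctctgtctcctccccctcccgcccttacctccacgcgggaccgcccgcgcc
MSMO1, chr4:166248571-166248820, plus strand: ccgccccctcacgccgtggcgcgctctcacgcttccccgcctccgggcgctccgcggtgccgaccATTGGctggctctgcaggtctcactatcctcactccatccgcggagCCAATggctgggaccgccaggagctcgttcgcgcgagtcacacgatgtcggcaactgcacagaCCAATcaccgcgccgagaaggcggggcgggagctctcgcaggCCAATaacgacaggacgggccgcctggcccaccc
NSDHL, chrX:151999357-151999606, plus strand: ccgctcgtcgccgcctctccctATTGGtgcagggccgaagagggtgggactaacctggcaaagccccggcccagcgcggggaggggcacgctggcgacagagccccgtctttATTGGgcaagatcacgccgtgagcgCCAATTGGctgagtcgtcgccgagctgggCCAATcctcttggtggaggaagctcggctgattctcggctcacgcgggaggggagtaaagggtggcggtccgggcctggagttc
HERPUD1, chr16:56965804-56966053, plus strand: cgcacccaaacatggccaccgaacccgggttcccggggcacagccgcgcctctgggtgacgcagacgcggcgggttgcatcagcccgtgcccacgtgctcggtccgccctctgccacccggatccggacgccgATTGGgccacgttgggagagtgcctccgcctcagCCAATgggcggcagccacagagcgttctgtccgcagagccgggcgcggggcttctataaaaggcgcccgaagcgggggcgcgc
SCD held 2 matches, whose first bases lay 229 and 186 bases before the start, MSMO1 held 4 and NSDHL 5, of which a pair overlaps. HERPUD1 held 2, on opposite strands. Of the 8 genes with the largest rises and lines alike, ZNF718 alone had the letters in its window.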

How the data were processed

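RNA-seq was done on MTSs of PC3 lines in 9 libraries, made with a stranded total RNA kit. Per the labels and the paper's methods, the authors aligned reads to human transcripts (GRCh37/hg19) with Bowtie2 within RSEM, and deposited, for each gene, the expected count, in which reads that fit several transcripts are shared out, and the TPM, which RSEM scaled for effective length and to the same total. The transcript tables were not used here. Groups and replicate letters came from the sample titles.

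After rounding, these counts went into edgeR 4.0.16 (R 4.3.3) with filterByExpr, TMM scaling, quasi-likelihood F tests of 3 groups in 1 fit, and Benjamini-Hochberg adjustment over 17108 genes. The contrast gave each line a weight of 0.5. SE was |log2FC| over the square root of F. Thresholds were those of the paper's methods, which used DESeq2. With 3 libraries per group, p-values measure the spread between these cultures. Replicate libraries differed by more than counting error. Pairing by letter was not assumed in the main fit. The mean correlation of deviations was 0.0862 over 7 same-letter pairs and -0.0299 over 20 different-letter pairs, which does not settle whether letters paired the samples. Depth of 18076979 to 27163976 counts leaves genes under about 1 CPM imprecise. The tests were checked on simulated counts.

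Gene lists, thresholds and the rule for named genes were chosen with earlier results of these data known. The rule took NF-Y subunits, and the 8 up and 8 down with the largest |log2FC| and lines within the band. It also took the 4 and 4 largest with lines differing. The 8 and 4 per direction were at 5 CPM or more in the higher group and had no overlap. To these it added the 3 and 3 called genes with the highest mean CPM, and up to 3 per list and direction. The text names part of these. MVD, INSIG1, CCNB3, HOXD13 and CHRDL1 were added as called members of lists, after their values were seen. CCAAT windows were planned from the RefSeq promoter table, which held windows for 75.1% of tested genes, under the minimum of 80%, so windows were read from GRCh37 with GENCODE canonical starts instead, for 93.0%. Positions are those of GENCODE on GRCh37, which placed 16045 tested genes. Figures used matplotlib 3.10.9. The alternatives tried were DESeq2 1.42.0, scaling by relative log expression (RLE), testing unfiltered genes or those with at least 10 counts everywhere, fitting 2 groups, blocking on the replicate letter, correcting for effective length, a threshold of 0.05, requiring a call in each line, and leaving out each library. Some genes and sequences are not reported here.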

Additional observations from a re-analysis of the deposited data

Results flagged for a closer look

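Of 100 genes whose response is described above, 32 differed between NF-YAl and NF-YAs at an adjusted p under 0.01, by the test of the difference itself. In 14 of them NF-YAl was the higher. Among these up-regulated genes, the log2 difference of NF-YAl minus NF-YAs was 4.32 for LRRC38, 1.88 for CLDN1, 1.53 for LOX, 1.35 for EPHA7, 1.07 for SPARC, 1.07 for KDR and 0.94 for SDC2. Among the down-regulated ones it was 3.49 for TFF2, 2.71 for EHF, 2.47 for ELF3, 1.63 for ADAMTS1, 1.61 for CDH3, 0.79 for ANGPTL4 and 0.69 for NDRG1, so these fell further in NF-YAs.

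In the other 18 genes NF-YAs was the higher. The difference was -2.59 for DCHS2, -2.17 for POU3F2, -2.02 for CNTN1, -1.50 for PDZRN3, -1.48 for GPR85, -1.09 for COL6A2, -1.03 for COL6A1 and -0.94 for ITGB3, all up-regulated. Among the down-regulated genes, which fell further in NF-YAl, it was -3.55 for TIMP3, -3.34 for SYN3, -3.10 for VWF, -2.38 for GABRA3, -2.05 for IFI27, -1.35 for MX2, -1.31 for OAS1, -1.25 for MT2A, -0.86 for MT1X and -0.86 for COL17A1. NDRG1 also had its whole 95% interval within 1 log2 unit. The cause of the differences was not tested.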

How the results depend on the processing

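No gene called both in the main fit and under an alternative was called in the opposite direction. None of the 122 genes chosen by rule changed sign where they had a value. Of these, 100 kept their side of the threshold wherever they had a value, and the other 22 lost the call in 44 of 1941 values. The number of genes up, 841, was 540 with at least 10 counts in every library, 581 with the lines as 1 group and 480 when called in both lines. The number down, 596, was 372 with the lines as 1 group and 268 when called in both lines. Called genes that differed between the lines, 366, were 133 with 1 group, 646 at an adjusted p under 0.05 and 114 when called in both lines. Those with no overlap, 1293, were 747 when called in both lines. List members called were 134 when called in both lines. Leaving out each library gave 642 to 899 up, 482 to 663 down, 207 to 435 that differed (222 without NF-YAs replicate B and 207 without NF-YAs replicate C), 444 to 555 within 1 log2 unit, 1072 to 1419 with no overlap and 197 to 247 list members, the lowest counts of calls without Empty replicate C. DESeq2 called 903 up and 612 down and shared 1394 of the 1437 calls, and RLE scaling shared 1437. In the 100 bases before the start CCAAT was in 16.3% of up-regulated, 17.7% of down-regulated and 20.7% of all tested genes.

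Whether the replicate letters paired the samples was not settled (correlations of -0.0652 to 0.253 for the same letter and -0.220 to 0.163 for different letters). The fit with the replicate letter as a block, in which NF-YAl replicate D has its own term, called 891 up and 623 down, 1334 of them shared with the 1437. In it, 8 cholesterol synthesis genes were called down in place of 5. CLDN1 was not called in it, without either of Empty replicates B and C, without any 1 NF-YAs library, without NF-YAl replicates B or D, or with the lines as 1 group. Depth limits genes near or under 1 CPM, where 413 of the up-regulated genes lay in Empty.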

Other observations

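Families looked at after their values were seen, and given as counts with no test, added further groups to the average response. Of 20 keratin genes tested, 10 fell on average and 0 rose (median log2FC -0.99). Of those 10, 5 differed between the lines and 2 had lines within 1 log2 unit. KRT8 fell on average (log2FC -1.05). KRT7, a keratin of glandular epithelium counted among the 10, was at 29.8 to 53.4 CPM in NF-YAl, above the 19.7 to 26.5 CPM of Empty. In NF-YAs it was at 0.896 to 2.05 CPM, with a line difference of 4.61. Of 7 kallikrein proteases 5 fell (median -2.70), with KLK5 at 1.42 to 2.58 CPM in Empty and at most 0.184 CPM elsewhere. Of 12 mucins 4 fell and 1 rose, and of 14 S100 genes 5 fell and 1 rose. S100A6, a calcium-binding protein of proliferating cells, was at 1281 to 1603 CPM in Empty, 417 to 545 CPM in NF-YAl and 446 to 463 CPM in NF-YAs (log2FC -1.66, line difference 0.06). Of 57 potassium channel genes 16 rose and 3 fell. KCNJ8, a channel closed by ATP, was at 0.126 to 0.354 CPM in Empty and 0.904 to 1.80 CPM in the overexpressing libraries, with a line difference of 0.06. The overall shares were 4.92% up and 3.48% down.

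Among the up-regulated genes, 18 had no count in any Empty library. BEX5, of a family of brain-expressed adaptors, was at least 79.3-fold higher in the overexpressing libraries, against a floor of 3 counts over the Empty group, with 1.06 to 3.49 CPM in NF-YAl and 3.82 to 4.70 CPM in NF-YAs. CADM1, a cell adhesion molecule, was at least 97.6-fold higher, but with 0.0818 to 0.123 CPM in NF-YAl and 5.03 to 10.2 CPM in NF-YAs. By chromosome, the median log2FC was lowest on 18 (-0.28), 16 (-0.23) and 21 (-0.22) and highest on 3 (0.17). On chromosome 21, 23 of 193 tested genes fell (11.9%), and on 13, 0 of 285 did.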
